A study of Drosophila melanogaster with 2 samples.

Results

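Peaks of an Amos ChIP-seq experiment that fell inside exons, away from promoters, are described here. They were the peaks of the thresholded list made from pooled reads (the optimal list) whose summit lay over 500 bp from the transcription start site (TSS) of every protein-coding gene. The summit also had to lie over 100 bp from any tRNA gene and inside an exon of a protein-coding gene. By this rule 272 of the 5823 peaks on the 6 main chromosome arms were exonic, out of 5860 peaks in all. The summit was in coding sequence for 164 of them, in a 3' UTR for 80 and in a 5' UTR for 28, the last being exons of transcripts whose start lay over 500 bp away.

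The samples were whole Drosophila melanogaster embryos, 0 to 18 h old, of an amos-eGFP fusion line. Precipitation was with an antibody to GFP, although the antibody field of the labels reads amos, and sonicated fragments spanned 200 to 800 bp. The 2 samples were biological replicates 1 and 2 of 1 group, so all comparisons set classes of peaks against each other. Whole embryos mix all cell types. Control libraries were not analysed here, so background at these positions was not measured.

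Amos is a proneural transcription factor of the basic helix-loop-helix family, known for specifying olfactory sense organs and a class of multidendritic neurons in Drosophila. Such factors pair with Daughterless and bind E-boxes, short palindrome-like sites. Coding sequence and UTRs are transcribed, and their base composition differs, coding exons being rich in G and C and 3' UTRs rich in A and T. BEAF-32 and DREF are DNA-binding proteins known from housekeeping promoters and domain borders, and their sites share letters.

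At 3' UTR summits the BEAF-32 site CGATAG and the DREF element TATCGATA were more frequent than in windows 1000 bp away, with adjusted p under 0.05 in the exact conditional test. For TATCGATA this was not kept when those windows had to lie in an exon of the same gene. Examples of both follow, each searched on both strands within 50 bp of the summit. They are shown in genomic 5′ to 3′ direction of the named strand, 30 bases each, from the Release 6 (dm6) genome, with the match in capitals. The first set has CGATAG near the summit of strong exonic peaks in 3' UTRs, in a 5' UTR of baz and in coding sequence of CG42748. CG9593, mdlc and baz were among the 25 members with the highest signal. CG6340, FASN2, CkIIbeta and CG42748 were chosen after their values were seen.
CG9593, 3' UTR, chr3R:15803630-15803659, plus strand: aataaacgttacCGATAGgaatcgaattta
mdlc, 3' UTR, chr3R:20059167-20059196, plus strand: taaggattgtaccacCGATAGgtggcgtgt
CG6340, 3' UTR, chrX:15484605-15484634, plus strand: caatagcttcttCGATAGtgcgacaatcga
FASN2, 3' UTR, chr2L:3055862-3055891, minus strand: agatcactagcgCGATAGagtgggcggcat
CkIIbeta, 3' UTR, chrX:11797113-11797142, plus strand: ctgttatccaacCGATAGttacggcaagtg
baz, 5' UTR, chrX:17175958-17175987, plus strand: ttgaatgtagttCGATAGttaggtgtctag
CG42748, coding, chr2L:22146311-22146340, minus strand: ttgtctctgacaCGATAGtatcgtccagtc

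The DREF element contains most of the BEAF-32 site, and where TATCGATA is followed by G both are matched. The following 2 cases in 3' UTRs, chosen after their values were seen, show TATCGATA alone and the joined form.
CG5151, 3' UTR, chr3L:16139322-16139351, plus strand: ctgcaattggtTATCGATAacttcagtttc
tna, 3' UTR, chr3L:10876238-10876267, plus strand: acgattaacaaTATCGATAggcagttggga

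The repeat CAGCAGCAG and the E-box CAGCTG, each searched on both strands, were more frequent at coding than at 3' UTR summits, and examples of the repeat are shown in the same way. Where the repeat is followed by CTG, as at InR, its end also spells CAGCTG. At InR and Larp4B the strand shown is that of the gene, and at SoxN it is the opposite strand. InR encodes the insulin receptor, SoxN a transcription factor of neural precursors and Larp4B an RNA-binding protein of the La family. InR and Larp4B were chosen after their values were seen.
InR, coding, chr3R:21580241-21580270, minus strand: gcagtagcaaCAGCAGCAGctgtcaagcaa
SoxN, coding, chr2L:8828470-8828499, minus strand: gttgccgccgCAGCAGCAGccgaagtggcg
Larp4B, coding, chr3L:3229377-3229406, plus strand: gggacagaccCAGCAGCAGcactatcaatt

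Coding peaks were weaker than peaks in 3' UTRs. Signal here means the height assigned by the authors' peak caller, comparable only within a list. In the optimal list it had a median of 49.8 over the 164 coding peaks, from 2.33 to 178.0. Over the 80 peaks in 3' UTRs the median was 101.4, from 5.04 to 872.7. Over the 28 peaks in 5' UTRs it was 62.4, from 5.47 to 209.4. Exonic peaks together had a median of 56, against 67.1 for intronic, 94.5 for intergenic and 141.3 for promoter peaks, and 120.1 for all peaks.

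The strongest exonic peaks were thus mostly in 3' UTRs. Of the 54 members with a signal of 100 or more, 41 were in a 3' UTR and 7 in coding sequence. Of the 102 members with a signal under 50, 9 were in a 3' UTR and 85 in coding sequence. A signal above the list's median was seen for 35 of 80 peaks in 3' UTRs (43.8%) and for 4 of 164 coding peaks (2.44%). This difference had an adjusted p of 2.93e-15 in Fisher's exact test. This and all later Fisher tests were two-sided, and their p-values were adjusted by Benjamini-Hochberg over 60 tests, of which 68.3% passed the threshold of 0.05. Peaks are not independent replicates, so these p-values and the 95% Wilson intervals describe the lists and not the spread between embryo collections.

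**Figure D1:**
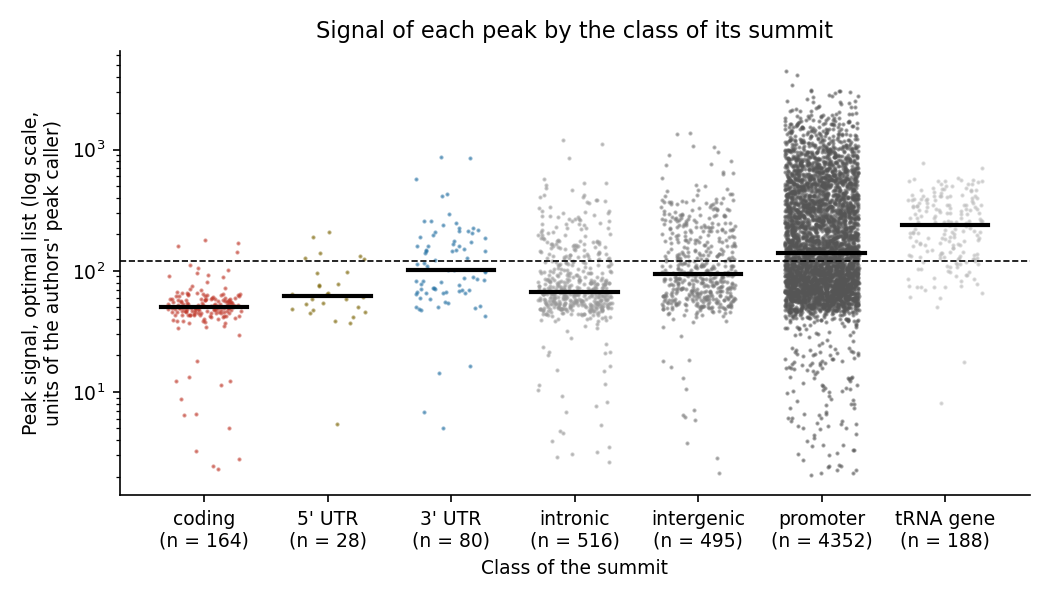
Signal of every peak of the optimal list on the main arms (log axis, units of the authors' peak caller) by the class of its summit; the bar is the median and the dashed line the median of all peaks, 120.1. Coding peaks crowd around a median of 49.8, while 3' UTR peaks reach 872.7.

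The exonic peak with the highest signal, 872.7, was in the 3' UTR of CG16989 on arm X. Its summit lay 172 bp from the nearest annotated 3' end among the gene's transcripts. In the list of replicate 1 this peak had a signal of 544.3 and rank 375, and in that of replicate 2 a signal of 334.9 and rank 269. Its place high in both lists was shared by exu, which encodes a factor for the localisation of bicoid mRNA in the oocyte. The exu peak, in the 3' UTR on arm 2R, had 847.2 in the optimal list, 594.7 at rank 313 in replicate 1 and 252.8 at rank 507 in replicate 2. CG9166 followed with 574.7, and with 303.8 and 259.1 in replicates 1 and 2.

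RpS26, which encodes a protein of the small ribosomal subunit, had a 3' UTR peak of 433.9. Its ranks were 2427 in replicate 1 (signal 101.1) and 284 in replicate 2 (signal 326.5). CG44403 had 412.7, with rank 2035 in replicate 1 and rank 374 in replicate 2. Its summit lay 60 bp from the TSS of a non-coding gene, which the rule does not consider, and that of CG9593 lay 153 bp from one. In all 4 of the 272 members (1.47%) were within 500 bp of such a TSS, against 8.66% of all peaks. The share was 6.59% for intronic, 14.9% for intergenic and 4.69% for promoter peaks. The non-coding genes counted include tRNA genes. All 188 peaks at tRNA genes thus count in the 8.66%, while the exonic rule leaves them out, so part of that contrast is set by the rule. The peak in raskol, which encodes a Ras GTPase activating protein, had 294.7, with ranks 2666 and 643. The replicate lists differ in length, 6214 and 2973 peaks, so ranks are given side by side and not compared.

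Of the 25 members with the highest signal, 22 were in 3' UTRs, 2 in 5' UTRs and 1 in coding sequence, and 19 were in both replicate lists. All 25 had a q value of 0.05 or less, and 24 overlapped a peak of the conservative list. These members were picked by signal, which comes from the same reads as the q value and the lists. Beyond those named above, the 3' UTR hosts were CG9593, ymp, pum, Ssu72, snsl, CG10175, Calr, Cipc, CG11961, CG8745, shd, mdlc, H2.0, lace, Tlk and pnr, with signals from 174.3 to 255.7. Their known functions are varied. Pum is an RNA-binding repressor of translation, Ssu72 a phosphatase of RNA polymerase II, Calr (calreticulin) a chaperone of the endoplasmic reticulum and shd (shade) the enzyme that makes 20-hydroxyecdysone. Lace is a subunit of serine palmitoyltransferase, Tlk a chromatin-associated kinase, H2.0 a homeobox gene of the visceral mesoderm and pnr (pannier) a GATA factor.

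The ymp and pum peaks were in the replicate 2 list alone, with signals there of 222.5 and 180.7. The peaks in Calr, shd and Tlk were in the replicate 1 list alone, with signals there of 182.8, 42.8 and 149.4. The 2 peaks in 5' UTRs were in dos, an adaptor of receptor tyrosine kinase signalling, with 209.4, and in baz, which encodes the polarity protein Bazooka, with 188.9. The dos peak was in both replicate lists, with signals of 75.4 and 129.9, and the baz peak in that of replicate 2 alone, with 151.6.

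The highest coding peak was in otp (orthopedia), a homeobox gene, with a signal of 178.0, and with 110.4 at rank 2242 in replicate 1 and 68.6 at rank 1933 in replicate 2. Only 2 other coding peaks were in both replicate lists, and they are named after their values were seen. The CG42748 peak had 170.6, with 120.4 and 56.8 in the replicates. The peak in su(f), which encodes a subunit of the cleavage stimulation factor of mRNA 3' ends, had 80.7, with 33.0 and 47.8.

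Support in the replicates, drawn from the reads that also gave the signal, followed the same split. In both replicate lists were 3 of 164 coding peaks, 1.83% (0.624 to 5.24), and 27 of 80 peaks in 3' UTRs, 33.8% (24.3 to 44.6), with an adjusted p of 1.48e-11 in Fisher's exact test. Over all peaks of the list this share was 39.7%. Among the 28 peaks in 5' UTRs it was 10.7% (3.71 to 27.2). For all 272 members it was 12.1% (8.77 to 16.5), and the share of promoter peaks was 44.7% (adjusted p 2.51e-28, Fisher's exact test).

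In the replicate 1 list were 13.4% of coding peaks and 66.2% of those in 3' UTRs, against 82.0% of all peaks. In the replicate 2 list were 12.8% and 55%, against 46.8% of all peaks. Each replicate alone thus held the difference, with adjusted p-values of 9.07e-16 and 2.98e-11 in Fisher's exact tests. The peaks in 5' UTRs were found in the replicate 1 list for 19 of 28 (67.9%) and in the replicate 2 list for 4 of 28 (14.3%). In neither list were 124 of 164 coding peaks (75.6%), 10 of 80 in 3' UTRs (12.5%) and 8 of 28 in 5' UTRs (28.6%).

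The q value and the conservative list gave the same order. They come from the same reads as the signal and the replicate lists, so these measures are not independent of each other. A q value of 0.05 or less was given to 17 of 164 coding peaks (10.4%) and to 60 of 80 peaks in 3' UTRs (75%), with an adjusted p of 2.29e-23 in Fisher's exact test. All peaks together reached 76.4%. The conservative list held 11% of coding peaks and 52.5% of 3' UTR peaks (adjusted p 2.04e-11, Fisher's exact test), against 52.1% of all peaks. In these shares 3' UTR peaks lay near the list as a whole and coding peaks far below it.

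**Figure D2:**
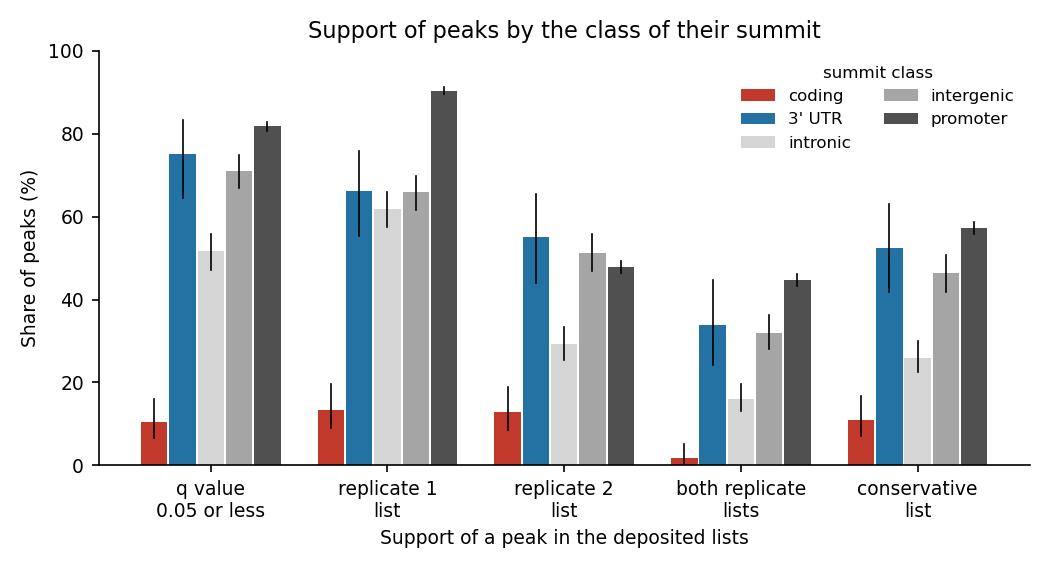
Share of peaks (%) of each summit class with a given support in the deposited lists; bars are shares, and lines are 95% Wilson intervals over peaks. Coding peaks are lowest in every measure, with 1.83% in both replicate lists against 33.8% of 3' UTR peaks.

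The ranked lists, which hold peaks before thresholding, contained most members. A peak of the replicate 1 ranked list overlapped 158 of 164 coding and 77 of 80 3' UTR members, and one of replicate 2 overlapped 131 and 61. There the median rank by signal of coding members was 9478 in replicate 1 and 4836 in replicate 2. That of 3' UTR members was 4327 and 1991. In each replicate the coding members thus stood lower within the same list.

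**Figure D3:**
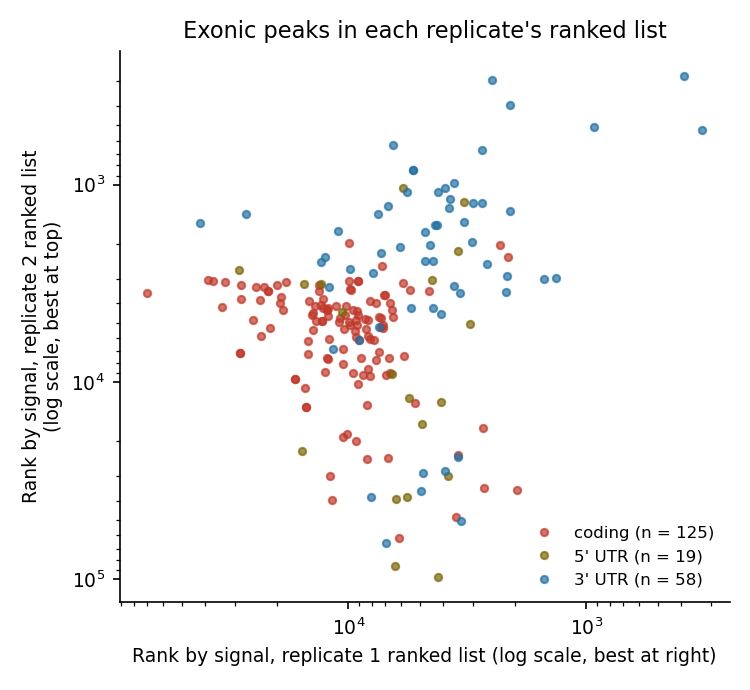
Rank by signal of the 202 exonic peaks found in the ranked lists of both replicates (log axes, best ranks at right and top), coloured by the class of the summit. The 3' UTR peaks spread to the upper right corner, and coding peaks gather at lower ranks in both.

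Compared with intronic peaks, exonic peaks as a whole had a lower share with a q value of 0.05 or less (32.4% against 51.6%, adjusted p 6.33e-07 in Fisher's exact test). Their share in the replicate 1 list was also lower (34.6% against 61.8%, adjusted p 1.37e-12, Fisher's exact test). For the replicate 2 list the shares were 25.4% and 29.3% (adjusted p 0.327, Fisher's exact test), and for both lists 12.1% and 16.1% (adjusted p 0.176, Fisher's exact test). Of the 15 features compared, 6 passed the threshold against intronic peaks, 12 against intergenic, 12 against promoter peaks and 11 between coding and 3' UTR members.

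The 272 members lay in exons of 255 genes, 1.83% of the 13945 protein-coding genes on the main arms. Of the members, 69 were on arm 3R, 61 on 2R, 58 on 2L, 50 on 3L, 34 on X and none on 4. A total of 25.8 Mb of exonic sequence met the same rule, which gave 10.6 peaks per Mb, beside 9.81 for introns, 12.3 between genes and 283.8 within 500 bp of a TSS. Within exons the density was 8.67 per Mb of coding sequence, 13.2 per Mb of 3' UTR and 35.4 per Mb of 5' UTR, the last over 0.791 Mb. Coding sequence made up 73.3% of the eligible exonic sequence and 60.3% of the members. These densities are a description and were not tested.

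The place of 3' UTR summits is given beside that of all eligible 3' UTR sequence, with no test. The median distance to the host gene's nearest annotated 3' end was 243.5 bp, with 41 of 80 within 250 bp and 60 within 500 bp, and 70 were in the last exon. Measured to the nearest end of any protein-coding transcript, 42 were within 250 bp (52.5%) and 60 within 500 bp (75%), beside 47.9% and 68.6% of eligible 3' UTR bases. From 100 to 250 bp from a 3' end were 33.8% of summits and 22.4% of eligible bases, and under 100 bp 18.8% and 25.4%. From 250 to 500 bp the shares were 22.5% and 20.7%. The nearest TSS belonged to the host gene for 42 of the 80 (52.5%).

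Coding summits had another place in the gene. They lay at a median of 65.8% of the way along the gene, 75 in internal exons, 63 in the last, 14 in the first and 12 in the only exon. For 112 of 164 (68.3%) the nearest TSS belonged to the host. Of the 28 summits in 5' UTRs, 27 had their nearest TSS in the host gene, and 21 were also in an intron of another transcript.

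Host genes often had a promoter peak too. Of the 255 host genes, 163 (63.9%, 57.9 to 69.6) had a peak within 500 bp of an own TSS, against 37.3% of all protein-coding genes. The share was 67.5% (59.8 to 74.3) for the 157 hosts of coding peaks and 46.7% (35.8 to 57.8) for the 75 hosts of 3' UTR peaks. The interval for 3' UTR hosts included the 37.3%. A host must have exonic sequence over 500 bp from every TSS, which not every gene has. A gene with several TSSs also counted if any of them had a peak. The 37.3% is therefore not a like background, and these shares are given without a test.

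Coding and 3' UTR summits differed most in base composition. The window of 50 bp to each side of the summit had a median GC share of 58.4% in coding members, 40.1% in 3' UTR members and 52.5% in 5' UTR members. The windows 1000 bp to each side had medians of 43.1%, 42.6% and 42.8%. For 150 of 164 coding summits the window was richer in GC than the mean of its flanks. Eligible coding sequence had a GC share of 53.4% and 3' UTR sequence 35.3%, so the summits of both classes stood above the sequence of their own kind.

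With flanks limited to exons of the same gene, available for 118 coding members, the medians were 57.9% at the summit and 49.5% at the flank, and 90 of 118 summits were higher. For 66 members in 3' UTRs they were 40.6% and 45.3%, and 25 were higher. A GC share above that of the median peak of the list was seen for 92.7% of coding and 23.8% of 3' UTR members (adjusted p 2.94e-27, Fisher's exact test). GC thus moved with the class that also had low signal and low support, and its part in those differences was not tested.

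**Figure D4:**
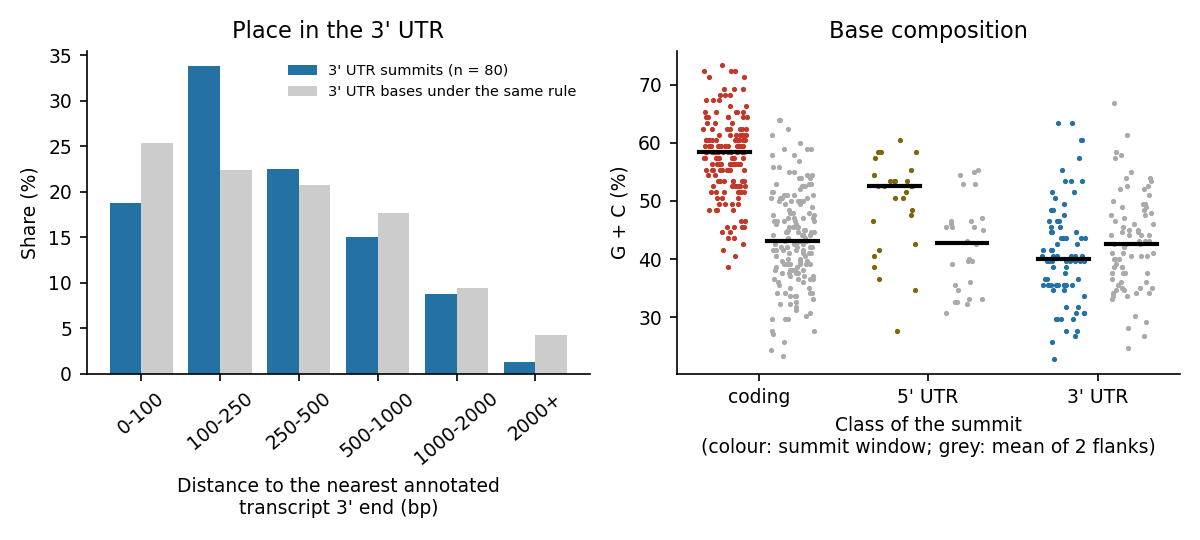
Left, share (%) of the 80 summits in 3' UTRs and of eligible 3' UTR bases by distance to the nearest annotated transcript end (bp); right, GC share (%) of each summit window in colour and of the mean of its 2 flanks in grey, with medians as bars. Summits exceed bases most from 100 to 250 bp, 33.8% against 22.4%, and coding summits have a median GC share of 58.4% against 43.1% in flanks.

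Of 18 motifs compared between summit windows and their flanks, 2 passed the threshold over the 272 members, which is 11.1%. CGATAG was found at 19 of 272 summits, 6.99%, and in 2.57% of flanks, a ratio of 2.71 with an adjusted p of 0.0279 in the exact conditional test. AATAAA has the letters of the polyadenylation signal, but it was counted on either strand, whatever the strand of the gene. It was found at 6.25% of summits and 16.7% of flanks, a ratio of 0.374 with an adjusted p of 2.31e-04 in the exact conditional test. With flanks limited to exons of the same gene the adjusted p-values in this exact test were 0.073 for CGATAG and 0.769 for AATAAA, so neither call was kept there, over the 199 members that had such a flank. For CGATAG the shares were then 8.54% and 1.76%, a ratio of 4.86, larger than before. For AATAAA they were 5.53% and 8.79%, a ratio of 0.629, closer to 1.

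Over all peaks of the list 25.7% held CGATAG, and at promoter peaks 31.4% did (adjusted p 8.27e-21 against exonic, Fisher's exact test). Other peaks away from promoters were nearer, with 8.14% of intronic (adjusted p 0.722) and 11.1% of intergenic summits (adjusted p 0.1, both Fisher's exact test against the exonic 6.99%). Neither of these differences passed the threshold. TATCGATA was at 2.21% of exonic, 4.65% of intronic, 5.66% of intergenic and 17% of promoter summits, and at 13.7% over all peaks. Its exonic share was lower than the intergenic (adjusted p 0.0413) and the promoter share (adjusted p 1.04e-13, both Fisher's exact test). Against intronic peaks it did not pass the threshold (adjusted p 0.152, Fisher's exact test). The exonic share of TATCGATA pools 6.25% of 3' UTR, 0.61% of coding and 0% of 5' UTR summits. For both motifs the 3' UTR share, 12.5% for CGATAG, lay near the intergenic one, a comparison that was not tested.

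Among the 3' UTR members alone CGATAG stood at 10 of 80 summits, 12.5% (6.93 to 21.5), and in 1.88% of flanks (adjusted p 0.0172, exact conditional test). With flanks in an exon of the same gene it stood at 9 of 66 summits and in none of the flanks (adjusted p 0.0234, exact conditional test). Such flanks may lie in any exon of the gene, coding sequence included, so they are not matched to 3' UTR sequence. Their median GC share was 45.3%, beside 35.3% of eligible 3' UTR and 53.4% of eligible coding sequence. TATCGATA stood at 5 of 80 summits, 6.25%, and in none of the flanks (adjusted p 0.037, exact conditional test), and with flanks in the same gene at 5 of 66, 7.58%, and again in none of the flanks. The adjusted p was then 0.188 in the exact conditional test, so the call was lost while the shares stayed as far apart. All 3' UTR summits with TATCGATA but that of CG5151 also held CGATAG, so the tests of both motifs share peaks. Among coding members CGATAG stood at 8 of 164 summits, 4.88%, and in 3.05% of flanks (adjusted p 0.569, exact conditional test). The direct comparison of the 12.5% with the 4.88% gave an adjusted p of 0.0561 in Fisher's exact test, and that of TATCGATA, 6.25% against 0.61%, gave 0.0243.

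The strongest member with either motif was exu, whose 3' UTR summit held both CGATAG and TATCGATA, and which had 847.2 in the optimal list and a peak in both replicate lists. Of the 25 members with the highest signal 4 held CGATAG, namely exu, CG9593, mdlc and baz, and exu was the 1 that held TATCGATA. Other cases are the sites printed above for CG9593, mdlc, CG6340, FASN2, CkIIbeta, CG5151 and tna. The centre of the match was 3 bp from the summit at CG9593, where the signal was 255.7 in the optimal list, 209.8 in replicate 1 and 39.8 in replicate 2. The peak in mdlc, which encodes a zinc finger protein linked to splicing, had 197.8, with 57.1 and 145.1 in the replicates. The centre of TATCGATA at tna was 4 bp from the summit, with a signal of 80.9 and a peak in the replicate 1 list alone. RpL13, of the large ribosomal subunit, had both motifs in its 3' UTR and a signal of 72.7. A match is a description of letters and not a measured site of any factor.

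No E-box form passed the threshold against flanks, whether over all members or within coding or 3' UTR members. Any E-box, CANNTG, was at 43% of the 272 summits and in 37.9% of flanks (adjusted p 0.338, exact conditional test), with 40.4% over all peaks. In coding members it was at 49.4% of summits and in 38.4% of flanks (adjusted p 0.0965, exact conditional test). The form CAGCTG was at 13.4% of coding summits and in 6.71% of flanks (adjusted p 0.0884, exact conditional test). In 3' UTR members these shares were 32.5% against 41.2% for CANNTG (adjusted p 0.502, exact conditional test). Between coding and 3' UTR members both CAGCTG (13.4% against 3.75%, adjusted p 0.0355) and CANNTG (49.4% against 32.5%, adjusted p 0.0222) differed in Fisher's exact test, as GC did.

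The repeat CAGCAGCAG was at 12 of 272 exonic summits, 4.41%, against 0.581% of intronic (adjusted p 7.08e-04) and 0.666% of promoter summits (adjusted p 4.91e-06, both Fisher's exact test). It was at 10 coding summits and no 3' UTR summit, 6.1% against 0% (adjusted p 0.0484, Fisher's exact test), where 0 of 80 has a 95% Wilson limit of 4.58%. The repeat was also at 2 of 28 summits in 5' UTRs, 7.14% (1.98 to 22.6), so it was not confined to coding summits. Against flanks the coding share was 6.1% to 1.83% (adjusted p 0.0884, exact conditional test), and with flanks in the same gene 6.78% to 2.54% (adjusted p 0.668, exact conditional test). Coding sequence is known to hold such repeats. AATAAA was at 2.44% of coding summits and in 18.6% of flanks (ratio 0.131, adjusted p 6.50e-07, exact conditional test). With flanks in the same gene, for 118 members, it was 1.69% and 9.75%, a ratio of 0.174 that was not called (adjusted p 0.193, exact conditional test). TATAAA, the letters of the TATA box on either strand, was likewise at 1.83% of coding summits and in 8.84% of flanks (ratio 0.207, adjusted p 0.0188, exact conditional test). With flanks in the same gene it was 0.847% and 4.24%, a like ratio of 0.2 that was not called (adjusted p 0.668, exact conditional test). AATAAA and TATAAA hold only A and T, and coding summits were richer in GC than their flanks. The part of base composition in these shares was not tested. The GAGA site GAGAGAG was at 0.368% of exonic and 4.46% of intronic summits (adjusted p 0.00129, Fisher's exact test). The M1BP motif GGTCACACT was at none of the 272 exonic summits, with a Wilson limit of 1.39%, and at 4.64% of promoter summits (adjusted p 1.75e-05, Fisher's exact test).

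**Figure D5:**
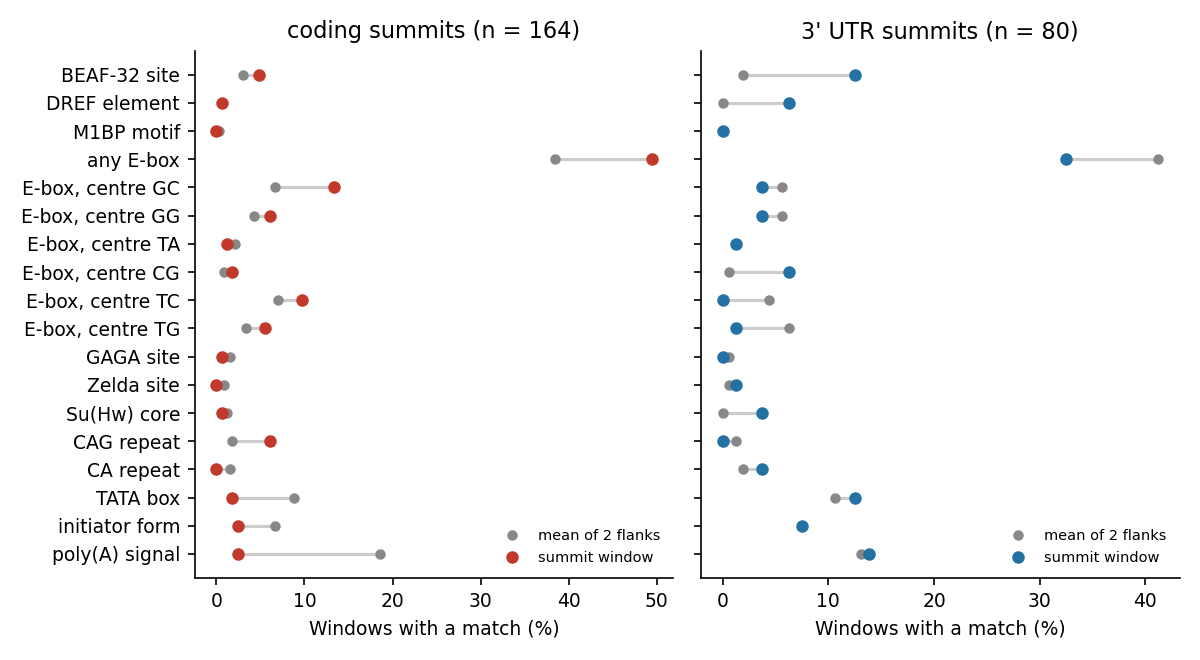
Share (%) of windows with a match to each of 18 motifs at the summit (colour) and in the mean of 2 flanks at 1000 bp (grey), for 164 coding and 80 3' UTR members. The BEAF-32 site, 12.5% against 1.88%, and the DREF element, 6.25% against 0%, separate in 3' UTRs, and AATAAA, 2.44% against 18.6%, in coding members. AATAAA is labelled as the poly(A) signal but was counted on either strand.

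Like most protein-coding genes, most listed genes of neural development had no exonic peak. None of those with one was among the hosts of the 25 members with the highest signal. Of 12 proneural genes, 13 of the Notch pathway and 16 pan-neuronal genes none had one, beside 1.83% of all protein-coding genes. Of 21 neural precursor genes 2 had one. The peak in numb, an inhibitor of Notch signalling, lay in a 5' UTR with 95.4 and was in both replicate lists, with 53.8 and 38.6. The coding peak in SoxN had 57 and was in neither. Of 15 genes of the E(spl) and Brd complexes, E(spl)m7-HLH had a coding peak of 64.8. E(spl)m8-HLH had one of 60.1, and both genes encode repressors that act under Notch. The E(spl)m7-HLH peak was in the replicate 2 list alone and the E(spl)m8-HLH peak in neither list.

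Of 19 genes of EGFR signalling, S (Star), needed for the export of the ligand Spitz, had a 5' UTR peak of 96.9, in the replicate 1 list alone. Of 19 transcription factors of sensory neurons, lola had a coding peak of 53.6, in the replicate 2 list alone. Of 8 Hox genes 3 had a peak, Antp in a 3' UTR with 86.6, abd-A with 49 and lab with 41.6 in coding sequence. The Antp and abd-A peaks were in the replicate 2 list alone and the lab peak in neither. With counts this small, a list's share is not read against the background.

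Genes with roles outside the nervous system were found as well. Of 19 segmentation genes hry (hairy) had a coding peak of 64.9, in the replicate 1 list alone. Of 20 broadly expressed genes of the cytoskeleton and translation, alphaTub84B had a coding peak of 40.2, in neither replicate list. Of 19 genes of chromatin, insulator and promoter factors, Dref had a coding peak of 52.2, mod(mdg4) of 45 and ph-p a 5' UTR peak of 44.8, all in neither replicate list. The signal of RpS26 and RpL13 has been given, the 2 of 85 genes for cytosolic ribosomal proteins with an exonic peak. None was found for 14 heat shock, 18 extracellular matrix, 13 cuticle and 8 visible marker genes, beside 1.83% of all protein-coding genes with one. Of the peaks named so far for the gene lists, those in numb, S, Antp, RpS26 and RpL13 had a q value of 0.05 or less. The others did not.

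In 3 genes there were 3 exonic peaks each, and in 18 genes 2. Mef2, the transcription factor of muscle and the only one of 20 muscle genes with an exonic peak, had a 5' UTR peak of 128.6 and 3' UTR peaks of 55.5 and 6.85. Both 3' UTR peaks overlapped the same replicate 1 peak, of 61.2. In lwr, which encodes the conjugating enzyme for SUMO, the 3' UTR peaks had 85.6, 84.2 and 72.0, the last in the replicate 1 list alone and the others in both. Those of 85.6 and 84.2 overlapped the same replicate 2 peak, and those of 84.2 and 72.0 the same replicate 1 peak. In pum the 3' UTR peaks had 246.5, 146.4 and 76.5, all in the replicate 2 list alone. Those of 246.5 and 76.5 overlapped the same replicate 2 peak, of 180.7. Overlapping peaks share reads, so such members are not separate: 44 of the 272 overlapped another peak of the list, and joining members that overlap left 254 stretches. Of the 18 members with a signal under 20, 16 overlapped another peak.

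The exonic peaks nearest to amos were both in coding sequence of CG15160 on arm 2L. Their summits were 3232 and 3027 bp from the gene, with signals of 62.8 and 6.57, and neither was in a replicate list. The 500 bp limit separates peaks that are alike in position. Just inside were CG43901 at 530 bp from a TSS with 142.2, COX4L at 533 bp with 45 and CG6244 at 536 bp with 102.0. Just outside were CG7370 at 496 bp with 92.6, mRpL27 at 494 bp with 258.6 and the gene not (non-stop) at 483 bp with 622.7.

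The rule applied to each replicate's own thresholded list found 155 exonic peaks of 6213 on the main arms in replicate 1 (2.49%) and 99 of 2880 in replicate 2 (3.44%). The mean was 2.97% ± 0.667 (SD, n = 2), below the 4.67% of the optimal list. Coding summits were 34.8% and 44.4% of them, with a mean of 39.6% ± 6.79 (SD, n = 2), and 3' UTR summits 47.1% and 50.5%, with a mean of 48.8% ± 2.41 (SD, n = 2). In the optimal list these shares were 60.3% and 29.4%. The list made from pooled reads thus held a larger share of coding summits than either replicate did.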

How the data were processed

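Peak lists from 2 biological replicates of anti-GFP ChIP-seq in amos-eGFP embryos were analysed. The authors' deposited lists are on dm6 (Release 6), per the text files deposited with the samples. They are an optimal and a conservative list from pooled reads that passed the irreproducible discovery rate (IDR) threshold, and a thresholded and a ranked list for each replicate. The aligner and peak caller were not given in the sources used here. Peak signal in the deposited files is the authors' value, with a scale set within a list, and the q value is deposited as −log10. Read counts are not part of the lists, so depth is unknown and intervals cover the counting of peaks only. The ranked lists from pooled reads were not used, nor were peaks off the 6 main arms.

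Summits were placed with Ensembl release 115 on Release 6, giving coding sequence precedence over 3' UTR and 3' UTR over 5' UTR. Peaks were matched between lists by an overlap of 1 bp or more. Motif windows reached 50 bp to each side of the summit, and flanks lay at 1000 bp. Every motif was searched on both strands. Classes were compared by two-sided Fisher's exact tests, 15 features over 4 pairs of classes, with p-values adjusted over all 60 by Benjamini-Hochberg (BH). Motifs were compared with the flanks by a two-sided exact test conditional on the number of matching windows of each peak, BH adjusted over 18. A sign test against the mean of both flanks had been planned; it gave too many calls on simulated data without an effect, so it was replaced. Motif tests within coding and within 3' UTR members were added after values had been seen. Intervals are Wilson 95%. Python 3.11.15, numpy 2.4.6, pandas 2.3.3 and scipy 1.17.1 were used.

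Members, motifs and the 17 gene lists were chosen with earlier results of these data known. Genes named are the hosts of the 25 members with the highest signal, genes with 3 or more exonic peaks, up to 3 genes per list, the members nearest to amos and those on either side of the 500 bp limit, and any others are said to be chosen after their values were seen. Of the list symbols, 10 had no match in the annotation. The alternatives were other lists, q value and signal limits, each replicate's list alone, other distances to a TSS, other annotation rules, overlaps, windows and flanks, and the joining of overlapping peaks, the last chosen after seeing the data.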

Additional observations from a re-analysis of the deposited data

Results flagged for a closer look

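The replicate lists held exonic peaks outside the optimal list, which the comparisons above do not use. In the replicate 1 list 59 exonic peaks overlapped no peak of the optimal list, and in the replicate 2 list 33 did. The highest signals among them, within their own lists, were 116.2 in a 3' UTR of Mob2 in replicate 1 and 56.9 in a 3' UTR of wg (wingless, a Wnt ligand) in replicate 2, both named after their values were seen. No control library was analysed here, so these counts are set against none.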

How the results depend on the processing

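Exonic peaks were 4.67% of the optimal list, 2.18% of the conservative list, 1.98% of peaks under the q value limit of 0.05 and 1.55% of peaks above the median signal. The share was 2.99% with summits over 1000 bp from a TSS, 3.83% with exons of every transcript and 2.49% to 3.44% with a replicate left out. Of the exonic peaks, 60.3% were coding in the optimal list, 30.9% in the conservative list, 19.3% under that limit of q, 8.89% above the median signal and 34.8% to 44.4% with a replicate left out. Above the median signal 60% of exonic and 73.6% of promoter peaks were in both replicate lists, and the call was lost (p 0.0593, Fisher's exact test, unadjusted). The other 10 alternatives for this share kept its direction and call. So did all 9 alternatives for the share above the median signal. The CGATAG share at exonic summits kept its direction everywhere. Beside the 6.99% at summits and 2.57% in flanks, it kept its call in 8 alternatives and lost it in 7. These were 6.32% against 1.72% over 1000 bp from a TSS, 6.73% against 3.14% with exons of every transcript, 4.41% against 1.84% in windows of 25 bp, 9.19% against 4.96% in windows of 100 bp and 8.54% against 1.76% with flanks in the same gene. With a replicate left out the shares were 9.03% against 2.58% (replicate 1 list) and 10.1% against 4.04% (replicate 2 list). The cause of these changes was not tested. No paired analysis was possible because there is 1 group. Depth was unknown, 2 replicates of 1 group allow no test between conditions, and signal was compared only within a list.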
